A study of Mus musculus with 15 samples.

Results

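The genes described here are 34 that serve DNA replication and S phase, the part of the cell cycle in which the genome is copied. They were taken as a fixed list of gene symbols from the 23420 in the count files, and all 34 had a row. By role they comprise 12 genes of helicase loading and activation, 10 of the polymerases and the fork, 5 of nucleotide supply, 4 E2F transcription factors and 3 of chromatin copying. Of the 34, 30 had enough reads to be tested. Orc1, Cdc6, Gins2 and E2f7 did not, and are given by their counts.

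Polyadenylated RNA from the left lobe of the liver, pulverized, was sequenced in 15 libraries from male mice of the inbred strain C57Bl/6J. Animals ate 1 of 3 diets with 5 libraries each. The base diet (BD) had 4% fat and the high-fat diet (HFD) 31%. The third diet (MCD) also had 31% fat and was deficient in methionine, choline and folate, nutrients that supply methyl and one-carbon groups. Every mouse, the BD controls included, had received a vehicle of 5% Alkmauls El-620 in saline, and tissue was taken 24 h later. The sources used here do not give age or time on the diets. HFD and BD differ in fat, and MCD and HFD in the deficiency, as far as the labels say, while MCD and BD differ in both. The labels number the BD samples 66 above the others, so an effect of that numbering and one of base diet cannot be told apart. Nor is it said that libraries came from separate animals, so the p-values reflect only how much these samples spread, which may be technical.

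Each library held between 3704642 and 23131089 gene counts (median 10312311), and the 34 genes together received 563 to 5647 counts. Levels are in CPM, counts relative to the library's gene counts after TMM scaling, given in order of replicate number, and differences are log2 fold changes with their standard error (SE). A gene was called when its adjusted p (edgeR quasi-likelihood test, Benjamini-Hochberg over 12193 genes) was under 0.05. At this depth 3 counts were worth 0.118 to 0.851 CPM on this scale, so members below about 1 CPM are poorly measured. Hepatocyte markers summed to 114081 to 157828 CPM in every library, as the tissue label says. HFD replicate 2 had the highest macrophage marker sum of its diet, 809 CPM where the remaining 4 ranged from 547 to 723, and the highest stellate cell sum, 518 CPM.

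Replication starts when the origin recognition complex (with Orc1), Cdc6 and Cdt1 load a ring of the subunits Mcm2 to Mcm7 onto DNA. Cdc45 and the GINS complex turn that ring into the active helicase, after which polymerases copy both strands and Pcna holds them on the template. E2F factors control many of these genes at the G1 to S transition: E2f1 and E2f2 are activators, and E2f7 and E2f8 are repressors whose own genes are E2F targets. In adult liver most hepatocytes rest outside the cycle and replicate again after injury or loss of tissue.

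E2F proteins bind DNA at sites that are commonly written TTCCCGC or TTCGCGC. The related forms searched were TTGCCGC and the variant TTGGCGC. These motifs were searched on both strands, counting overlapping matches, in the RefSeq promoter windows of the build GRCm38.p6, each 300 bases long with 250 before and 50 after a transcription start. Of the 34 genes, 30 had a window, and 23 of those 30 (76.7%) held a motif, against 2936 of 27025 genes in the whole table (10.9%). By role the counts were 7 of 9 for helicase genes, 8 of 9 for polymerase and fork genes, 2 of 5 for nucleotide supply, 3 of 4 for E2F factors and 3 of 3 for chromatin copying. In the list of mitosis genes 3 of 17 (17.6%) held one. The longer form with 1 more T in front was in 15 of the 30 genes (50.0%) and in 2.61% of all genes. Cdc45, Dut, E2f1, Mcm2, Pcna, Tk1 and Tyms had no match, which says only that these letters were not in the window. Binding of E2F factors was not assayed, and a match is a sequence feature and not a measured binding site.

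The 5 windows printed here belong to genes the results turn on: Mcm5 and Mcm6, helicase subunits called higher on MCD; Mcm7, a subunit that was not called; E2f8, which was highest on HFD; and Tk1, which was lowest on MCD. They are written 5′ to 3′ on the strand of the gene, with motif matches in capitals. The Mcm5 window is chr8:75109259-75109558 on the plus strand with 3 matches, and the Mcm6 window chr1:128359656-128359955 on the minus strand with 5. For Mcm7 the window of 2 with more matches is shown, chr5:138171834-138172133 on the minus strand with 3. The E2f8 window is chr7:48881547-48881846 on the minus strand with 1 match, and the Tk1 window chr11:117825965-117826264 on the minus strand with none.
Mcm5: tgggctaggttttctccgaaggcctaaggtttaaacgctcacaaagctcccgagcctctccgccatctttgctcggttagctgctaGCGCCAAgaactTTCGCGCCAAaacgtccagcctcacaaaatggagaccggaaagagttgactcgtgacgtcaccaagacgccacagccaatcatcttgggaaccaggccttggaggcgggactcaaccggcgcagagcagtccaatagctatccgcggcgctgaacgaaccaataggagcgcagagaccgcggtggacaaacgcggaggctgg
Mcm6: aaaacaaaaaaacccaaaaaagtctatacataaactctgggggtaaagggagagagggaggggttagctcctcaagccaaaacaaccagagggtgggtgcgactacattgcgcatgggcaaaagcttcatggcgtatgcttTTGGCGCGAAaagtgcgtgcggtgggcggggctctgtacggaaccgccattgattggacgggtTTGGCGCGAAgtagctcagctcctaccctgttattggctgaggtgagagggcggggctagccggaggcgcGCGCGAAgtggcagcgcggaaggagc
Mcm7: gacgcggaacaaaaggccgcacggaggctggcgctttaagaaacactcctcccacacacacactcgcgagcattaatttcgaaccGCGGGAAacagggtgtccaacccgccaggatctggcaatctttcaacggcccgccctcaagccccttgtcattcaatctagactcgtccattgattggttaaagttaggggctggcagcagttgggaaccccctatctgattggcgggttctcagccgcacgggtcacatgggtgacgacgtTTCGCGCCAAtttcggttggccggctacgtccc
E2f8: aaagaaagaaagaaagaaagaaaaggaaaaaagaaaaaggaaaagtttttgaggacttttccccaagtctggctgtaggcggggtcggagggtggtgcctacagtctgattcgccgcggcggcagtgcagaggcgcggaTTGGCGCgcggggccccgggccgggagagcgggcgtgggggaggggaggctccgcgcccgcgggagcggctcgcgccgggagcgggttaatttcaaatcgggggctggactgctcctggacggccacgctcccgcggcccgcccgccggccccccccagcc
Tk1: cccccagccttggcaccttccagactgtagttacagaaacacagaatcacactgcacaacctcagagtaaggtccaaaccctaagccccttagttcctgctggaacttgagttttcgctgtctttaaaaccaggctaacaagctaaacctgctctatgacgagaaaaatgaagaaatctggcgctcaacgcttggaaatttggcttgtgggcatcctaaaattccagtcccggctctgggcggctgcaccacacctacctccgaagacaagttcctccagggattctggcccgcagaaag
So the Mcm7 window, whose gene was not called in any comparison, held as many matches as that of Mcm5. In Mcm6 the matches came as overlapping pairs on opposite strands, with first bases at 109 and 106 and at 46 and 43 bases before the start. A single match lay 25 bases after the start. Mcm5 and Mcm7 also held such an overlapping pair, so the number of matches exceeds the number of separate stretches.

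A subset of the replication genes rose on MCD. Against BD, 9 of the 30 tested genes rose on MCD: Mcm2, Mcm3, Mcm5, Mcm6, Lig1, Rrm1, Rrm2, Uhrf1 and Chaf1a, where 12.8% of all tested genes rose. Tk1 alone fell, where 8.64% of all genes fell. The median log2 fold change of the 30 was 0.40 (−0.03 over all genes), and 25 of the 30 were above 0. In 4 genes (Mcm5, Mcm6, Lig1 and Chaf1a) every MCD library lay above every BD library, as did 9.32% of all genes, and in Tk1 every MCD library lay below, as did 6.07%. Uhrf1 passed the filter on low counts almost only through the MCD libraries, so its call carries less weight than the others.

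HFD against BD moved few of these genes. Mcm5 and E2f8 rose (3.65% of all genes rose), Tk1 fell (3.27% of all genes fell), 27 were not called, and the median was 0.10 (−0.01 over all genes). In MCD against HFD, Mcm2, Mcm6 and Lig1 rose (2.22% of all genes rose) and E2f8 fell (0.927% of all genes fell), with 26 not called and a median of 0.35 (−0.00 over all genes). These last shares moved with single libraries: 6.80% of all genes rose and 3.31% fell without HFD replicate 2, and 0.456% rose and 0.147% fell without HFD replicate 4. Without HFD replicate 1, 3 or 5 the shares higher were 1.0%, 0.978% and 0.873%, and the shares lower 0.473%, 0.283% and 0.380%. Without MCD replicate 1, 4 or 5 they were 0.729%, 0.875% and 1.32% higher, and 0.197%, 0.286% and 0.461% lower. For HFD against BD, the share higher was 2.39% without BD replicate 3. The comparisons share libraries in pairs, so their values are set side by side and not as support for each other. Scaling bears on the counts: with library sizes alone, without TMM factors, the median of all genes for MCD against BD moved up by 0.14. In that fit 14 members and 18.9% of all genes rose. The split of all calls for MCD against BD was then 2308 higher to 512 lower (81.8% higher) in place of 1557 to 1053 (59.7%). For HFD against BD it was 589 to 297 (66.5%) in place of 445 to 399 (52.7%), and for MCD against HFD 411 to 67 (86.0%) in place of 271 to 113 (70.6%).

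**Figure D1:**
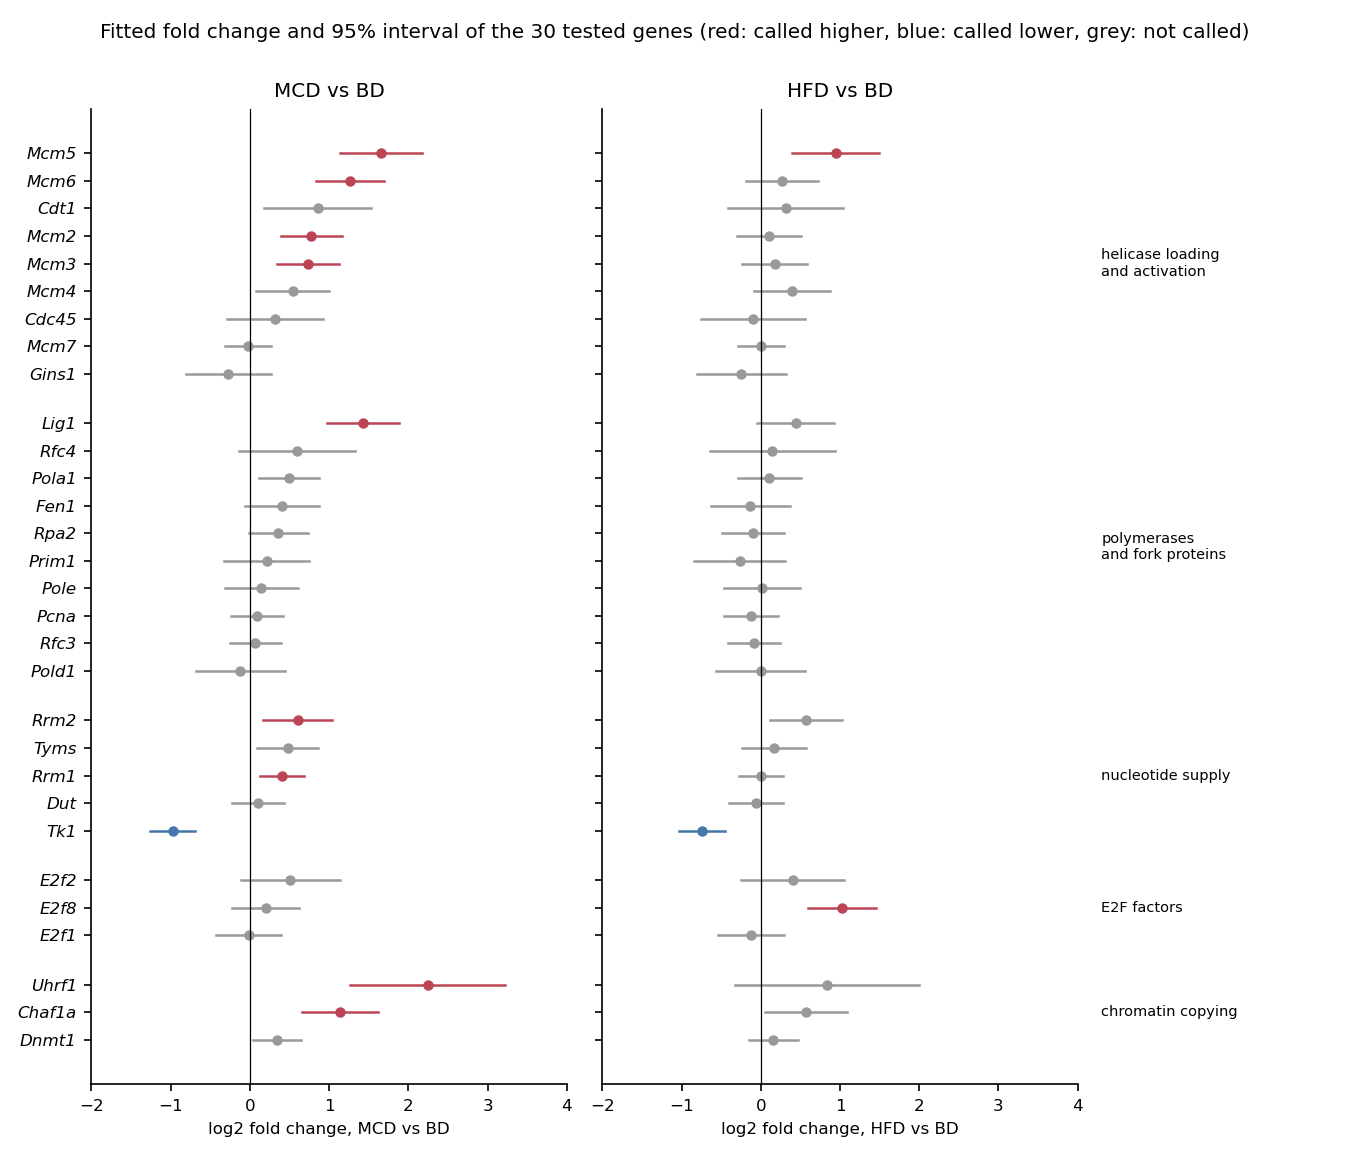
Fitted log2 fold change (point) and 95% interval (line) of the 30 tested genes, MCD against BD on the left and HFD against BD on the right, grouped by role; red marks a gene called higher, blue called lower and grey not called. Red points are spread over helicase, fork, nucleotide and chromatin genes on the left, where 9 are red, while on the right Mcm5 and E2f8 are red; Tk1 is blue in both.

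Per library, the 30 tested genes summed to 147 to 161 CPM on BD, 163 to 178 on HFD and 169 to 219 on MCD. In these sums BD lay below both other diets, and HFD and MCD overlapped. The mean sums were 155 on BD and 171 on HFD, and E2f8 alone averaged 11.8 and 24.4 CPM, most of that gap. With each gene weighted alike, the mean log2 level relative to BD was −0.10 to 0.06 on BD and −0.01 to 0.28 on HFD, which overlapped. On MCD it was 0.21 to 0.67, above all BD libraries. HFD replicate 2, with its high macrophage markers, summed to 165 CPM, within its diet's range. Among MCD libraries, replicate 5 was the lowest for 19 of the 30 genes and replicate 1 the highest for 13. Leaving out HFD replicate 2 and MCD replicate 3, which earlier results of these data had singled out, left the MCD against BD counts at 9 and 1 and the MCD against HFD counts at 3 and 1. In that fit 13.6% of all genes rose and 9.14% fell for MCD against BD. For MCD against HFD 7.24% of all genes rose and 3.95% fell, against 2.22% and 0.927% with all libraries. HFD against BD then had 1 gene higher, E2f8, with 2.62% of all genes.

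Helicase genes gave 4 of the calls for MCD against BD, out of 9 tested of 12, where 12.8% of all tested genes rose. Mcm5 (chromosome 8, 75109569 to 75128439, build GRCm38 for this and the positions below) measured 0.284, 1.86, 2.24, 1.28 and 1.89 CPM on BD. Its HFD libraries gave 3.04, 2.93, 2.37, 4.15 and 3.37 CPM and its MCD libraries 6.57, 4.88, 4.87, 6.10 and 4.06 CPM. All HFD libraries stood above all BD libraries, and 4 of 5 MCD libraries above all HFD libraries. The rise on MCD over BD was 1.66 ± 0.25 (SE, n = 5 per diet; 95% interval 1.14 to 2.18, 3.15-fold, edgeR adjusted p = 1.54e-04). On HFD over BD the rise was 0.95 ± 0.26 (interval 0.40 to 1.50, edgeR adjusted p = 0.0332), and MCD over HFD was 0.71 (interval 0.23 to 1.19, edgeR adjusted p = 0.0930), not called. The HFD call of Mcm5 was lost in 7 of the 25 alternative analyses. It was lost without BD replicate 2 (adjusted p = 0.0547), BD replicate 4 (0.0826), HFD replicate 4 (0.0984) or HFD replicate 5 (0.0607). It was also lost after thinning all libraries to the depth of the shallowest (0.331) and with only the 2 diets compared (0.0575). The 7th was the fit without HFD replicate 2 and MCD replicate 3 (0.0537). BD replicate 1, the shallowest library, held 1 count of Mcm5, and without it MCD against HFD was called (adjusted p = 0.0464).

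Mcm6 (chromosome 1, 128331590 to 128359664) stood at 6.25, 4.33, 3.10, 4.26 and 6.65 CPM on BD and at 5.32, 6.42, 5.69, 6.37 and 5.39 CPM on HFD. On MCD it reached 14.4, 12.6, 7.83, 14.3 and 9.55 CPM, every library above all others. That was a rise of 1.26 ± 0.21 over BD (interval 0.83 to 1.70, 2.40-fold, edgeR adjusted p = 3.05e-04) and of 1.0 ± 0.20 over HFD (interval 0.58 to 1.42, adjusted p = 0.0147). HFD against BD was 0.26 (interval −0.19 to 0.72, adjusted p = 0.560). Mcm6 was the 1 member called for MCD against HFD in all 25 alternative analyses.

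Mcm2 (chromosome 6, 88883474 to 88898780) read 6.81, 3.41, 4.14, 3.27 and 4.06 CPM on BD and 4.22, 5.10, 3.08, 4.78 and 4.59 CPM on HFD. With MCD it read 8.46, 6.33, 6.88, 7.77 and 5.89 CPM, above every HFD library but overlapping BD through BD replicate 1. Mcm2 rose by 0.78 ± 0.18 over BD (edgeR adjusted p = 0.00508) and 0.68 ± 0.18 over HFD (adjusted p = 0.0463), with 0.10 (interval −0.31 to 0.51) between HFD and BD. The call over HFD lay at the threshold: it was lost in 14 of the 25 alternatives, with adjusted p from 0.0502 to 0.137. Among these were the fits without BD replicate 2 (0.0506) or 3 (0.0593), without HFD replicate 1 (0.0906), 3 (0.103), 4 (0.104) or 5 (0.0990), and without MCD replicate 1 (0.137), 2 (0.0506), 3 (0.0507), 4 (0.108) or 5 (0.0525).

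Mcm3 had means of 5.21 ± 1.25 (SD, n = 5), 5.55 ± 1.25 and 8.32 ± 1.73 CPM on BD, HFD and MCD, and rose by 0.73 ± 0.19 on MCD over BD (edgeR adjusted p = 0.00855). Mcm4 averaged 4.92, 6.41 and 7.02 CPM and was not called for MCD over BD (0.54, interval 0.08 to 1.0, adjusted p = 0.0900). Without MCD replicate 5 it was called (adjusted p = 0.0346). Mcm7 (chromosome 5, 138164583 to 138172422) ranged from 8.02 to 10.5 CPM on BD, 7.96 to 11.4 on HFD and 7.01 to 10.5 on MCD. Its differences were −0.03 for MCD against BD (interval −0.31 to 0.26), 0.01 for HFD against BD (−0.28 to 0.30) and −0.03 for MCD against HFD (−0.32 to 0.25). A rise as large as that of Mcm2, Mcm5 or Mcm6 on MCD over BD lies outside the first of these intervals.

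The ring holds these subunits in equal number, so their levels were also divided by exon length. On that scale (CPM per kb of exon) Mcm7 was the highest subunit in every diet, with means of 3.10, 3.10 and 3.01 on BD, HFD and MCD, and Mcm5 the lowest, with 0.437, 0.917 and 1.53. Mcm3 came second, with 1.72, 1.83 and 2.75. Mcm6 went from 1.12 and 1.33 to 2.68, Mcm2 from 1.29 and 1.29 to 2.10, and Mcm4 from 1.37 and 1.78 to 1.96. Mcm7 made up 29.0% to 40.1% of the per-kb total of the 6 subunits on BD, 27.3% to 38.4% on HFD and 17.7% to 25.6% on MCD, with MCD below both. This share was chosen after the values were seen, and it carries no test. Mcm7 exons overlap those of Ap4m1 and Cops6 on the opposite strand, and Cops6 stood at 94.0, 87.6 and 90.9 CPM in the 3 diets, about as flat; how reads were shared there was not tested.

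**Figure D2:**
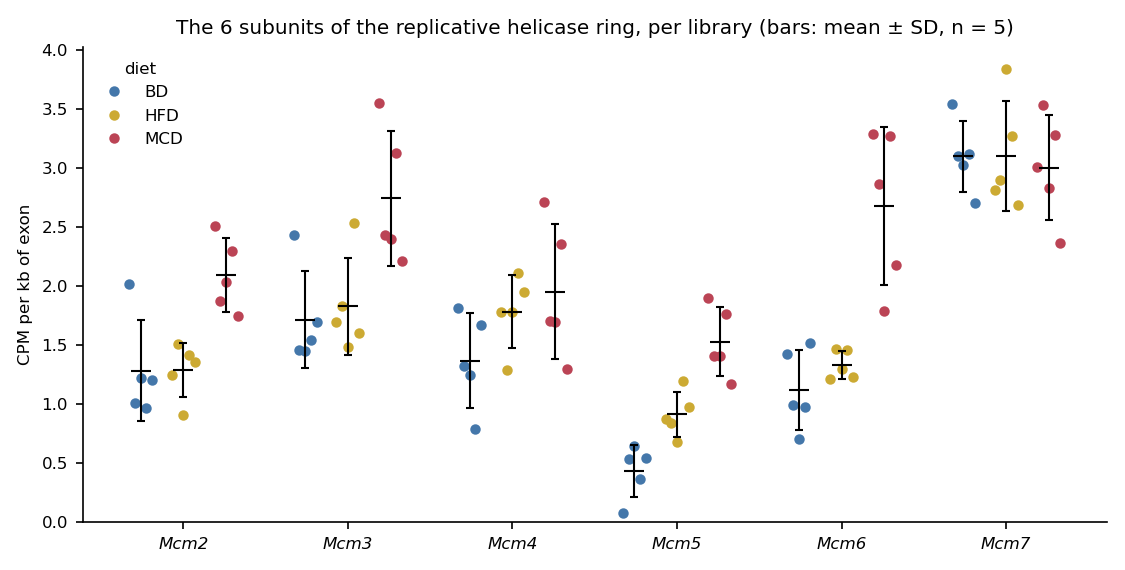
CPM per kb of exon for the 6 ring subunits, each dot a library coloured by diet, with mean ± SD bars (n = 5). Mcm7 stays near 3 in every diet, while the MCD dots of Mcm2, Mcm3, Mcm5 and Mcm6 sit above most or all BD dots.

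The loaders and activators of the helicase were low. Cdt1 averaged 1.69 ± 0.626 (SD, n = 5) CPM on BD, 1.88 ± 0.882 on HFD and 2.73 ± 0.604 on MCD, and its difference for MCD against BD, 0.86 (interval 0.18 to 1.53), missed the threshold (edgeR adjusted p = 0.0650). It was called in 5 of the alternatives, with adjusted p from 0.0348 to 0.0377, among them without HFD replicate 4 (0.0357) or MCD replicate 2 (0.0367). The difference was 0.26 (adjusted p = 0.540) with non-unique alignments as a covariate and 0.60 (adjusted p = 0.387) after thinning all libraries to the depth of the shallowest. Cdc45 (1.25, 1.26 and 1.70 CPM) and the GINS subunit Gins1 (2.40, 2.06 and 2.05 CPM) were not called, with 0.32 and −0.27. Of the untested loaders, Cdc6 had 12, 18 and 67 counts in all on BD, HFD and MCD, Orc1 1, 4 and 8, and Gins2, another GINS subunit, 20, 32 and 82. These totals are not scaled for depth, and the 3 groups held 55695130, 54803430 and 75735936 gene counts. Mean CPM was 0.178, 0.307 and 0.771 for Cdc6, 0.00944, 0.0836 and 0.0949 for Orc1, and 0.441, 0.601 and 0.951 for Gins2. Cdc6 lay above both other diets in all MCD libraries, at 0.905, 0.519, 1.17, 0.748 and 0.508 CPM, against 0 to 0.283 on BD and 0 to 0.506 on HFD. The gap to HFD was narrow, 0.508 against 0.506 CPM. When all genes were fitted without the filter on low counts, Cdc6 (1.85 ± 0.50, edgeR adjusted p = 0.0121) and Gins2 (1.35 ± 0.40, adjusted p = 0.0228) were called for MCD against BD and Orc1 was not (adjusted p = 0.272).

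In the fork group 1 of 10 genes was called for MCD against BD, a share below the 12.8% of all tested genes that rose. Lig1, the ligase that joins Okazaki fragments (chromosome 7, 13277283 to 13311433), measured 2.56, 1.86, 3.02, 1.85 and 2.97 CPM on BD and 2.87, 4.53, 2.13, 3.62 and 3.37 CPM on HFD. On MCD it measured 7.83, 7.89, 5.48, 7.88 and 4.67 CPM, above all libraries of both other diets. Lig1 rose by 1.43 ± 0.22 over BD (interval 0.98 to 1.89, 2.70-fold, edgeR adjusted p = 1.72e-04) and by 0.99 ± 0.21 over HFD (adjusted p = 0.0169). HFD against BD was 0.44 (interval −0.05 to 0.93, adjusted p = 0.309). The call over HFD was lost in 3 of the 25 alternatives: after thinning to the shallowest library (0.267) and without HFD replicate 4 (0.0540) or MCD replicate 1 (0.0514).

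Pola1, the catalytic subunit of the primase-polymerase, read 2.84, 3.61, 3.36, 2.99 and 4.25 CPM on BD, 3.04, 3.78, 3.08, 4.25 and 4.59 on HFD and 5.15, 4.46, 4.36, 6.56 and 4.06 on MCD. All but 1 MCD library exceeded BD, and the difference of 0.50 (interval 0.12 to 0.87) fell short of the threshold (edgeR adjusted p = 0.0567). It passed in 8 of 25 alternatives, among them those without BD replicate 5 (0.0321), HFD replicate 1 (0.0422), 2 (0.0472) or 3 (0.0462), and MCD replicate 3 (0.0404) or 5 (0.0362). Pcna, the sliding clamp and a common marker of proliferating cells, ranged from 7.10 to 13.4 CPM on BD, 7.73 to 11.4 on HFD and 9.65 to 12.7 on MCD. Its difference was 0.09 for MCD against BD (interval −0.24 to 0.42, adjusted p = 0.725), so a rise as large as that of Lig1 or Mcm6 lies outside its interval. Pcna has the pseudogene copies Pcna-ps1 and Pcna-ps2, and reads placed at more than 1 site entered no gene, so its level is uncertain.

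The replicative polymerase subunits Pold1 (3.10, 3.19 and 2.85 CPM on BD, HFD and MCD) and Pole (2.70, 2.60 and 2.81 CPM) differed by −0.12 and 0.15 for MCD against BD. The clamp loader gene Rfc3 was at 5.85, 5.63 and 6.13 CPM, a difference of 0.07 (interval −0.25 to 0.39). Its partner Rfc4 spread widely within MCD, from 1.02 to 4.57 CPM, and gave 0.59 (adjusted p = 0.250). Prim1, the primase, gave 0.21, Rpa2, of the single-strand binding complex, 0.36 (called without MCD replicate 5, adjusted p = 0.0481), and the flap nuclease Fen1 0.41 (adjusted p = 0.211). None of the 10 fork genes was called for HFD against BD by edgeR, where 0 also had an unadjusted p under 0.05, and by DESeq2 and limma-voom the count was 0 as well.

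Nucleotide supply held both directions. Rrm1, the large subunit of ribonucleotide reductase (chromosome 7, 102441695 to 102469771), was at 15.3, 11.4, 11.5, 12.8 and 12.5 CPM on BD, 11.2, 11.5, 11.8, 14.3 and 13.6 on HFD and 19.8, 14.4, 15.2, 19.3 and 13.5 on MCD. BD replicate 1 overlapped MCD. Rrm1 rose by 0.40 ± 0.13 on MCD over BD (edgeR adjusted p = 0.0364) and differed by 0.00 between HFD and BD. Its call was lost without BD replicate 2 (0.0886), 3 (0.0912), 4 (0.0575) or 5 (0.0538), without MCD replicate 1 (0.116) or 4 (0.101), and after thinning (0.0904). Rrm2, the small subunit, whose level limits the enzyme in S phase, averaged 3.89 ± 1.04 (SD, n = 5), 5.92 ± 1.02 and 6.06 ± 1.50 CPM on BD, HFD and MCD. It rose by 0.60 ± 0.21 on MCD over BD (edgeR adjusted p = 0.0475). HFD was about as far above BD, at 0.57 (interval 0.12 to 1.02), without being called (adjusted p = 0.132), and MCD against HFD was 0.03 (interval −0.39 to 0.46). Without BD replicate 1 (0.0768), 2 (0.0674), 3 (0.138) or 4 (0.0776), HFD replicate 5 (0.0582) or MCD replicate 1 (0.148) or 2 (0.0893) the MCD call of Rrm2 was lost. The same held by limma-voom (0.0682), with only the 2 diets compared (0.0570) and after thinning (0.111).

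Tyms, thymidylate synthase, which makes dTMP with a folate cofactor, averaged 3.79, 4.25 and 5.35 CPM on BD, HFD and MCD and was not called for MCD against BD (0.48, interval 0.09 to 0.86, edgeR adjusted p = 0.0732). Without MCD replicate 5 it was (0.0337). Dut, which removes dUTP, was at 7.60, 7.32 and 8.26 CPM, a difference of 0.10 (adjusted p = 0.685). Tk1, thymidine kinase, makes dTMP by salvage and usually peaks in S phase, and it went the other way. Tk1 (chromosome 11, 117815526 to 117826092, minus strand) read 11.6, 13.1, 15.7, 14.4 and 11.8 CPM on BD, 8.61, 7.27, 6.64, 7.63 and 9.71 on HFD and 6.10, 5.81, 6.99, 7.48 and 7.72 on MCD. Every HFD and MCD library was below every BD library, and HFD and MCD overlapped. The log2 fold change was −0.97 ± 0.14 for MCD against BD (interval −1.26 to −0.69, edgeR adjusted p = 8.54e-05), −0.74 ± 0.14 for HFD against BD (interval −1.03 to −0.45, adjusted p = 0.00227) and −0.23 for MCD against HFD (interval −0.52 to 0.06, adjusted p = 0.362).

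Exons of Tk1 overlap exons of Afmid, arylformamidase of tryptophan breakdown, on the opposite strand. Afmid was far more abundant, with 219 ± 22.1 (SD, n = 5) CPM on BD, 99.2 ± 16.5 on HFD and 84.9 ± 7.05 on MCD. It fell in the same comparisons, by −1.37 ± 0.11 on MCD (edgeR adjusted p = 2.16e-07) and −1.14 ± 0.11 on HFD (adjusted p = 2.39e-06). Tk1 came to 5.50% to 6.89% of Afmid on BD, 6.83% to 9.70% on HFD and 7.10% to 8.78% on MCD. The sources used here do not give the strand setting of the counting, so reads of Afmid may be among those of Tk1; their part in the fall of Tk1 was not tested. Overlap with an opposite-strand exon was annotated for 11 of the 34 genes. Besides Afmid, the partners with a tested value (Ubxn6, Tmem258, Gse1, Ap4m1, Cops6 and Eif4a2) were not called in any comparison.

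**Figure D3:**
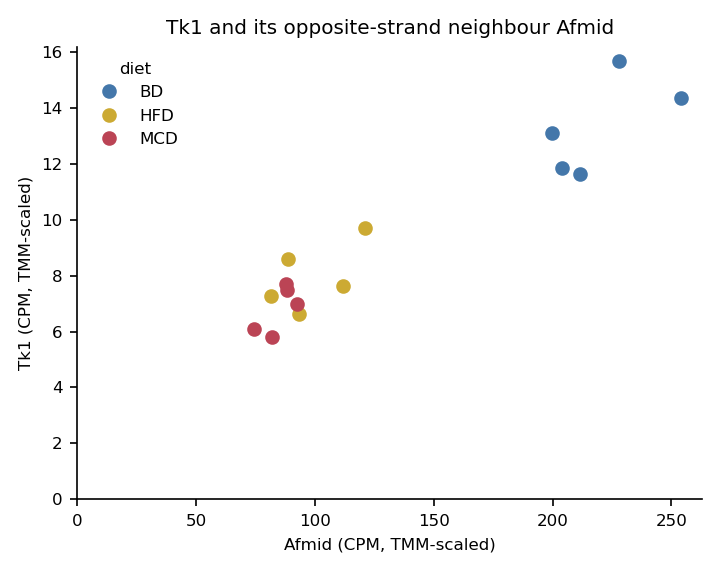
Tk1 against Afmid, both in CPM, each dot a library coloured by diet. The 5 BD libraries stand apart at the upper right (Tk1 11.6 to 15.7 CPM), and the HFD and MCD libraries lie together at the lower left.

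Of the E2F factors, E2f8 was the one that moved, and on HFD. E2f8 (chromosome 7, 48866429 to 48881596) read 9.94, 11.0, 19.1, 8.81 and 10.2 CPM on BD, 26.2, 23.9, 26.5, 24.8 and 20.8 on HFD and 8.38, 17.1, 14.9, 13.6 and 15.4 on MCD. All HFD libraries were above all BD and all MCD libraries, while BD and MCD overlapped. E2f8 rose by 1.03 ± 0.20 on HFD over BD (interval 0.60 to 1.45, 2.04-fold, edgeR adjusted p = 0.00377). MCD against BD was 0.20 (interval −0.22 to 0.62, adjusted p = 0.527), and MCD against HFD was −0.83 ± 0.20 (interval −1.24 to −0.42, adjusted p = 0.0300). This last call was lost without HFD replicate 1 (0.0712), 3 (0.0766) or 4 (0.0794), without MCD replicate 1 (0.0689) or 4 (0.0732), and with non-unique alignments as a covariate (0.0836). E2f8 thus did not follow the order of Mcm5, Mcm6 or Lig1, whose means were highest on MCD.

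E2f2 was at 2.56, 3.20, 0.948, 1.42 and 1.60 CPM on BD, 2.19, 1.89, 2.13, 2.22 and 4.05 on HFD and 2.64, 3.84, 2.68, 2.01 and 2.23 on MCD, with the diets overlapping. Its difference for MCD against BD was 0.51 (interval −0.11 to 1.13, edgeR adjusted p = 0.243). E2f1 averaged 4.88, 4.38 and 4.70 CPM, a difference of −0.01 (interval −0.42 to 0.39, adjusted p = 0.972). For MCD against BD, 0 of the 3 tested E2F factors were called by edgeR, DESeq2 or limma-voom. At an unadjusted p under 0.05 the counts were 0, 0 and 1. E2f7, with 31, 37 and 55 counts in all on BD, HFD and MCD, was not tested. The MCD group was the deepest, and the mean CPM of E2f7 was 0.589, 0.697 and 0.685.

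Among the chromatin-copying genes Chaf1a rose on MCD, and Uhrf1 was called but was tested only because of its MCD levels. Chaf1a, a subunit of the assembly factor that puts histones behind the fork (chromosome 17, 56040439 to 56072289), read 1.14, 1.75, 1.81, 1.42 and 1.51 CPM on BD, 1.60, 2.45, 1.90, 2.66 and 2.97 on HFD and 4.48, 2.08, 3.36, 3.34 and 3.86 on MCD. All MCD libraries were above all BD libraries, and MCD replicate 2 lay within HFD. Chaf1a rose by 1.14 ± 0.23 (interval 0.65 to 1.62, edgeR adjusted p = 0.00160) over BD, with HFD between, at 0.57 (interval 0.06 to 1.08, adjusted p = 0.193). Uhrf1 recognises hemimethylated DNA at the fork and brings Dnmt1 there (chromosome 17, 56303321 to 56323486). It read 1.14, 0.413, 0.259, 0 and 0.236 CPM on BD, 0.928, 0.566, 0.474, 0.483 and 0.270 on HFD and 2.40, 1.14, 1.23, 1.55 and 0.914 on MCD. These levels rest on 16, 31 and 130 counts per diet, and BD replicate 1 overlapped MCD. The fitted rise was 2.24 ± 0.47 over BD (interval 1.27 to 3.22, edgeR adjusted p = 0.00191), with 1.41 over HFD not called (adjusted p = 0.0648). Dnmt1, the maintenance methyltransferase, was at 15.9 ± 2.07 (SD, n = 5), 17.6 ± 0.313 and 19.9 ± 4.63 CPM and was not called for MCD against BD (0.35, interval 0.04 to 0.65, adjusted p = 0.0965). Dnmt1 was called without MCD replicate 2 (adjusted p = 0.00319), and also with all libraries but without TMM factors (0.0269).

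**Figure D4:**
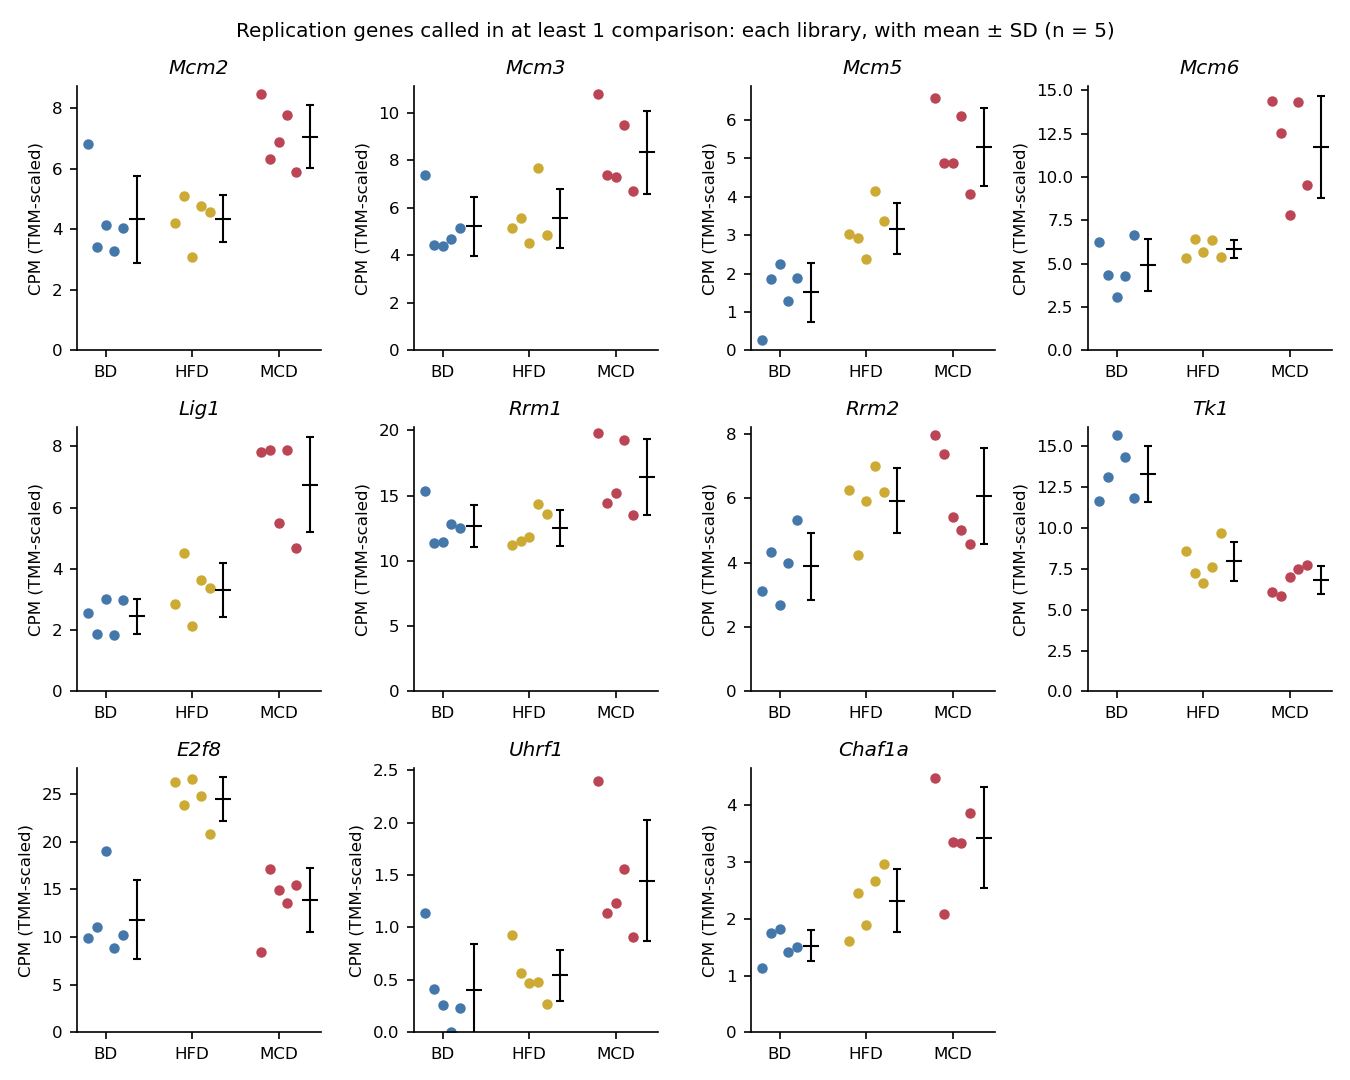
CPM in each library (dots, by diet) with mean ± SD (n = 5) for the genes called in at least 1 comparison. Mcm6 and Lig1 stand above both other diets on MCD, E2f8 peaks on HFD, Tk1 is highest on BD, and Rrm2 is at like levels on HFD and MCD.

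Genes of the same processes outside these 34 are given beside them, with no test between the lists. Of 97 further replication-related genes 84 were tested. Among the 84, Ccne1, Ccne2, Chaf1b, Hells, Fanci and Chek1 were tested only because of their MCD levels. For MCD against BD 8 rose and 7 fell, at or below the background shares above, with a median of 0.04. HFD against BD gave 2 and 2, and MCD against HFD 2 and 1. Further helicase loading and firing genes (Orc2 to Orc6, the kinase genes Cdc7 and Dbf4, and others) had 0 calls of 15 for MCD against BD by edgeR, DESeq2 and limma-voom, with 2 at an unadjusted p under 0.05 in each, and a median of 0.13. Further fork genes had 2 of 19: Rfc2, a clamp loader subunit, rose by 0.40 ± 0.13 (edgeR adjusted p = 0.0291) and Dna2, a nuclease, changed by −0.43 ± 0.11 (adjusted p = 0.0104).

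Nucleotide and folate genes were split, 2 higher and 3 lower of 17. Mthfd1, which interconverts one-carbon forms of folate, averaged 364, 255 and 220 CPM on BD, HFD and MCD and changed by −0.73 ± 0.10 on MCD over BD (edgeR adjusted p = 9.29e-05). Samhd1, which breaks down dNTPs, rose by 0.55 ± 0.11 (adjusted p = 0.00165). Named after their values were seen, Shmt1 and Gart also fell (−0.42 and −0.30) and Ctps rose (0.72). Among genes of E2F and RB control 3 of 15 rose and 2 fell. Ccna2, cyclin A2, went from 1.16 ± 0.492 (SD, n = 5) CPM on BD and 1.71 ± 0.407 on HFD to 4.84 ± 0.934 on MCD, a rise of 1.96 ± 0.26 over BD (edgeR adjusted p = 5.95e-05). Tfdp2, an E2F partner, changed by −0.55 ± 0.10 (adjusted p = 0.00104). Rbl1 (0.93) and Ccne1 (2.14) also rose and Rbl2 fell (−0.35), named after their values were seen. Ccne1, at a mean of 0.426 CPM on BD, and Ccne2 were tested only because of their MCD levels. Of the other 13 genes of this list 2 rose.

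In chromatin copying and methylation 1 of 9 rose, Dnmt3a (0.33 ± 0.11, edgeR adjusted p = 0.0359), and 1 fell, Dnmt3b (−1.75 ± 0.35, adjusted p = 0.00154), both de novo methyltransferases. Of 9 tested genes of replication-linked repair and checkpoint 1 rose, Brca1 (0.75 ± 0.25, adjusted p = 0.0379). For HFD against BD the calls were Ctps (0.69) and Cdca7 (1.01) higher and Mthfd1 (−0.51) and Dnmt3b (−1.22) lower. For MCD against HFD they were Ccna2 (1.47) and Rbl1 (0.74) higher and Shmt1 (−0.41) lower.

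For MCD against BD 16 of 17 tested mitosis genes rose, with a median of 1.89, where 12.8% of all tested genes rose. Of these 17, 8 reached the minimum level for testing in fewer than 5 of the 10 BD and HFD libraries and so were tested only because of their MCD levels (Plk1, Aurkb, Bub1b, Cdc20, Tpx2, Nusap1, Cenpe and Cenpf), which bears on both the count and the median. Of the other 9, 8 rose. Cdc20, an activator of anaphase, went from 0.413 ± 0.193 (SD, n = 5) CPM on BD to 3.67 ± 1.54 on MCD (3.02 ± 0.38, edgeR adjusted p = 3.62e-05), and Mki67, the Ki-67 antigen, from 1.71 ± 1.15 to 9.60 ± 1.56 (2.33 ± 0.30, adjusted p = 5.85e-05). MCD against HFD had 15 of 17 higher, with a median of 1.44, and HFD against BD had 0 by edgeR, DESeq2 and limma-voom, with 3, 3 and 4 at an unadjusted p under 0.05 and a median of 0.54. Most mitosis genes were below 2 CPM on BD, and no test compared the lists.

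Markers of other cells moved with the same diets. All 14 tested macrophage markers rose on MCD over BD, among them Ctss (1.21) and Cd68 (1.39), 5 rose on HFD over BD and 4 on MCD over HFD. Of the 14, Trem2 and Gpnmb were tested only because of their MCD levels, and the other 12 all rose on MCD over BD. Of all tested genes 12.8% rose on MCD over BD, 3.65% on HFD over BD and 2.22% on MCD over HFD. The sums below are over all markers of a type. The macrophage marker sum was 373 to 630 CPM on BD, 547 to 809 on HFD and 769 to 985 on MCD. Stellate cell markers rose in 7 of 9 cases on MCD over BD, among them Pdgfrb (0.97) and Dcn (0.73), with sums of 299 to 394, 379 to 518 and 528 to 869 CPM. Endothelial markers rose in 3 of 7, with Stab2 (0.44) and Pecam1 (0.52), and sums of 248 to 318, 243 to 291 and 311 to 328 CPM. Hepatocyte markers had 1 of 8 lower, the urea cycle gene Cps1 (−1.56), with sums of 127489 to 147021, 114081 to 136757 and 116784 to 157828 CPM. Cholangiocyte markers had Spp1 higher (1.44) and Sox9 lower (−0.85) of 4 tested, with sums of 56.6 to 96.5, 59.2 to 193 and 79.0 to 256 CPM. Spp1 alone made up most of these sums, with means of 56.8, 89.1 and 155 CPM on BD, HFD and MCD.

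Lymphocyte and neutrophil markers were low. Of the T and NK cell markers 1 was tested, Cd4, which was lower on MCD (−1.39). The sum of all 9 in the files, Cd4 included, did not fall with it. That sum was 3.30 to 7.13 CPM on BD (median 5.83), 4.47 to 7.05 on HFD (6.20) and 4.88 to 9.91 on MCD (7.31). For B cells 2 were tested with differences of 0.42 and 0.46 for MCD against BD, neither called, and sums up to 4.92 CPM. Neutrophil markers summed to 0.283 to 2.56 CPM and passed no filter. Erythroid markers summed to 97.8 to 193 CPM, with Hbb-b1 and Hba-a1 listed at 0 in every library and 3 tested genes between −0.17 and −0.03 for MCD against BD. In whole-lobe RNA, more cells of a type and more RNA per cell cannot be told apart. Which cells carried the replication transcripts was not measured, and the part of macrophage and stellate cell content in the rise of these genes was not tested.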

How the data were processed

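Members and gene lists were chosen with earlier results of these data known. Per the submitters' processing notes the authors used Trimmomatic, TopHat2 2.0.13, HTSeq and DESeq2 with GRCm38/mm10, and per the labels the kit keeps strand; the sources used here give no annotation, counting mode or strand setting. The deposited values are raw counts per gene symbol. The 5 closing rows (reads outside genes 12.7% to 17.0% of uniquely placed reads, ambiguous 0.567% to 0.841%) were left out.

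Counts were fitted with edgeR 4.0.16 (R 4.3.3), using TMM factors, filterByExpr by diet (minimum count 10, minimum total 15; 12193 genes kept), 1 robust quasi-likelihood fit over the 15 libraries, two-sided F tests per pair of diets, and Benjamini-Hochberg adjustment over the genes tested. SEs were taken from the fold change and F (log2 fold change over the root of F). The common biological coefficient of variation was 0.176. The 30 within-diet library pairs differed by more than sampling (chi-square 6.89 to 61.1 per degree of freedom), so none were merged as 1 library deposited more than once. This does not tell separate animals from separate preparations. Tested on simulated data with 12193 genes, the MCD against BD fit recovered 27 of 70 genes changed 1.5-fold, 54 of 70 changed 2-fold and 59 of 60 changed 4-fold. HFD against BD recovered 26, 57 and 60, and MCD against HFD 33, 52 and 58. The changed genes were drawn at random from all tested genes, so these rates do not describe genes as low as most members. Far fewer genes were changed than the 2610 called for MCD against BD, so the adjusted p also behaves differently there.

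The 25 alternatives were DESeq2 1.42.0, limma-voom (limma 3.58.1), 2 other scalings, 2 other filters, only the diets compared, a covariate of non-unique alignments (1.15 to 2.80 per gene count), thinning to the shallowest library, leaving out 2 libraries, and leaving out each of the 15 in turn. Replicate numbers follow deposition order and pair nothing. Positions and exon lengths are from the GENCODE vM21 annotation of GRCm38. Of 224 listed genes 221 were found. Values in every library are given for the 2 tested members of each role with the smallest p for MCD against BD, for members called against or with HFD, and for members called lower. Of other lists the 2 called genes with the smallest p are named.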

Additional observations from a re-analysis of the deposited data

Results flagged for a closer look

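Among the 90 groups of 5 libraries (30 tested genes in 3 diets), 8 had a library that stood far from the other 4 of its diet by Dixon's test, which flags about 1 in 20 groups by chance. BD replicate 1, the shallowest library, was high for Mcm2 (6.81 CPM against 3.27 to 4.14) and Mcm3 (7.38 against 4.40 to 5.14) and low for Gins1 (1.70 against 2.41 to 2.70). MCD replicate 2 was low for Cdt1 (1.66 CPM against 2.91 to 3.11) and high for Cdc45 (2.70 against 1.40 to 1.53). Rfc3 was high in HFD replicate 3 (7.11 CPM against 5.00 to 5.53), E2f2 in HFD replicate 5 (4.05 against 1.89 to 2.22) and E2f8 in BD replicate 3 (19.1 against 8.81 to 11.0).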

How the results depend on the processing

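No called member changed direction in any of the 25 alternatives. For MCD against BD 8 of the 10 calls (Mcm2, Mcm3, Mcm5, Mcm6, Lig1, Tk1, Uhrf1 and Chaf1a) were made in every alternative that tested them, Uhrf1 and Chaf1a being tested in 24. Rrm1 was lost in 7 and Rrm2 in 10. For HFD against BD Tk1 and E2f8, and for MCD against HFD Mcm6, were called in all 25. The 9 genes higher for MCD against BD became 14 without TMM factors and 5 after thinning to the shallowest library, and were 7 to 13 with 1 library left out. The 2 higher for HFD against BD became 1 with only the compared diets fitted (3.42% of all genes rose) and 1 without HFD replicate 2 and MCD replicate 3 (2.62%). They became 1 after thinning, and 1 to 2 with 1 library left out (2.39% to 4.10% of all genes). The 3 higher for MCD against HFD became 1 after thinning and 1 to 4 with 1 library left out (0.456% to 6.80% of all genes). With 1 library left out the 1 lower became 0 to 1 (0.147% to 3.31% of all genes), and with non-unique alignments as a covariate it became 0. At that 0 by edgeR E2f8 had an adjusted p of 0.0836, and DESeq2 and limma-voom each called 1 lower. Thinning tests fewer reads and genes; the cause of the other shifts was not tested. The longer E2F-type motif was in 15 of the 30 genes in place of 23. No paired analysis was possible because the labels give the diets no shared replicate numbers.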
